A study of Mus musculus with 18 samples.

Results

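The collagen gene family was examined in skin of 6 hairless mice at 3 stages of tumour development under ultraviolet light. The members were all entries of the deposited expression table whose symbol has the form of a collagen chain (Col, a type number, a and a chain number). This gave 40 of the 14521 named genes of the table. They comprised 10 fibrillar collagens, 10 collagens of basement membranes, 6 FACIT collagens (fibril-associated collagens with interrupted triple helices) and 14 others, among them 6 chains of type VI, 3 short-chain collagens and 3 transmembrane collagens. The annotated collagen genes Col2a1, Col9a1, Col9a2 and Col19a1 were not analysed here.

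The mice were female littermates of SKH-1E, a hairless strain prone to skin tumours under ultraviolet light. They were exposed from 3 months of age to a solar simulator for 100 days, and tissue was taken 14 days after the last exposure. Each mouse gave 3 libraries of mRNA, from chronically irradiated skin without a lesion (CHR), from a papilloma (PAP, a benign outgrowth of the epidermis) and from a cutaneous squamous cell carcinoma (SCC), so that n = 6 in each group. All 18 libraries therefore came from irradiated animals, and a group is a set of pieces of tissue in which epidermis, dermis and deeper layers can be present in different amounts. Mice carried the numbers 2, 3, 7, 8, 9 and 10.

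Collagens are trimers of 3 chains wound into a triple helix. Fibrillar collagens form the load-bearing fibrils of the dermis, FACIT collagens sit on the surface of these fibrils, and type IV collagens form the sheet-like network of basement membranes. At the border of epidermis and dermis, type XVII collagen spans the membrane of basal keratinocytes in the hemidesmosome, and type VII collagen forms the anchoring fibrils that tie the basement membrane to the dermis. Dermal fibroblasts are the main source of fibrillar and type VI collagen, whereas keratinocytes make much of type VII and XVII.

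Levels are given as normalised read counts, which are reads recovered from the deposited values and divided by a size factor of the library. Library depth was 15.4 to 21 M recovered reads, and large counts are recovered only to within the rounding of the deposited value. Differences between groups are in log2 units of the deposited value plus 1, with the standard error (SE) of limma, and a gene was called when its Benjamini-Hochberg adjusted p over 14521 genes was under 0.05. The deposited scale compresses low counts, so that log2 differences of weakly expressed genes are understated. Markers of other tissues were checked first. All 8 basal keratinocyte markers were higher in PAP than in CHR, and their summed share of reads was 0.684% to 1.21% in CHR, 2.46% to 4.01% in PAP and 0.918% to 2.77% in SCC. Of 10 dermal fibroblast markers 9 were lower in PAP, with a summed share of 0.248% to 0.466% in CHR, 0.00697% to 0.093% in PAP and 0.0221% to 0.353% in SCC. Mfap5 and Clec3b of this list had at least 1 papilloma library with 0 reads, and Mfap5 also a carcinoma library. All 8 skeletal muscle markers were lower in PAP, with a summed share of 2.12% to 3.07% in CHR, 0.000853% to 0.168% in PAP and 0.00221% to 1.05% in SCC. The part of these shifts in the results below was not tested, and in bulk tissue fewer cells of a type and less RNA per cell cannot be told apart.

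Several type IV genes lie head to head and are read away from a shared start region, which is shown because the paired genes are compared below. Promoter windows from 250 bases before to 50 bases after the start, from RefSeq on GRCm38.p6, were found for 32 of the 40 members. Col4a1 (minus strand, chr8:11312777-11313076) and Col4a2 (plus strand, chr8:11312555-11312854) overlap at their 5′ ends in the GENCODE annotation of GRCm38. The 78 bases that both windows share (chr8:11312777-11312854) are in capitals, each window being read 5′ to 3′ on its own strand. For Col4a4 (minus strand, chr1:82586800-82587099), capitals mark the 71 bases between its start site and that of Col4a3 on the opposite strand (chr1:82586850-82586920).
Col4a1: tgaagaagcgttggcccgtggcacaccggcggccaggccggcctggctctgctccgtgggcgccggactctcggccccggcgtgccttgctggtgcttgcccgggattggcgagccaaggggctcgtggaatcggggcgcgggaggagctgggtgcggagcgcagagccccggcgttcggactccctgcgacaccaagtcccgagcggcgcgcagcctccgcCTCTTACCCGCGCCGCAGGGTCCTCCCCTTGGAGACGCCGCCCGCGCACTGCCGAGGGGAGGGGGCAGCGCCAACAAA
Col4a2: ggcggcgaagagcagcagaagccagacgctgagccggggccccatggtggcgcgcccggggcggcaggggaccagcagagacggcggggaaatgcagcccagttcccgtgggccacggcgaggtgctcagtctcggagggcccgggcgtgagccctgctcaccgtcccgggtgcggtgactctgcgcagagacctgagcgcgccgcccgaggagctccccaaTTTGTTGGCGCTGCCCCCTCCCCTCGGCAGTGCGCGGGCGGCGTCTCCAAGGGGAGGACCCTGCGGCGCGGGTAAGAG
Col4a4: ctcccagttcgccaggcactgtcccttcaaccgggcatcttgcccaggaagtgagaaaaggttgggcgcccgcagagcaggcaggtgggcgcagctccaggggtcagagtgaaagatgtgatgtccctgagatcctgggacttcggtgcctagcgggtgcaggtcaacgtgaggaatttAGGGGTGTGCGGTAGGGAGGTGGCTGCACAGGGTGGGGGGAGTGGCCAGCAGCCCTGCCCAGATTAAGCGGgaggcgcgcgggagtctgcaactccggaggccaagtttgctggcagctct

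Windows of 4 genes that represent the epidermal anchoring collagens and the dermal fibrils are shown next, because these groups of collagens are set against each other below. They are Col17a1 (minus strand, chr19:47691993-47692292), Col7a1 (plus strand, chr9:108953336-108953635), Col3a1 (plus strand, chr1:45311288-45311587) and Col1a2 (plus strand, chr6:4505368-4505667). Capitals mark each match, on either strand, to the CCAAT box (letters CCAAT), to the GC box (letters GGGCGG) and to the TATA box (letters TATAAA).
Col17a1: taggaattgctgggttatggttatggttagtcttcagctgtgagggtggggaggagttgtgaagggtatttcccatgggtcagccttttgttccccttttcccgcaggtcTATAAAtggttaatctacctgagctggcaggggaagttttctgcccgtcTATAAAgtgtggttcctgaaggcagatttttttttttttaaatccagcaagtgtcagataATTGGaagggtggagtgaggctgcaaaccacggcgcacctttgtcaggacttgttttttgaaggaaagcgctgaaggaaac
Col7a1: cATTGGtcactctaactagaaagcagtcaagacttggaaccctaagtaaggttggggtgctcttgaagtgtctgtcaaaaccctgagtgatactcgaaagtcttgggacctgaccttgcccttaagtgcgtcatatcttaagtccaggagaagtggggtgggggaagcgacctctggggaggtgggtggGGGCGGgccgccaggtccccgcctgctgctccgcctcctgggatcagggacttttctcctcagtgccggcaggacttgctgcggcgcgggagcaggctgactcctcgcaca
Col3a1: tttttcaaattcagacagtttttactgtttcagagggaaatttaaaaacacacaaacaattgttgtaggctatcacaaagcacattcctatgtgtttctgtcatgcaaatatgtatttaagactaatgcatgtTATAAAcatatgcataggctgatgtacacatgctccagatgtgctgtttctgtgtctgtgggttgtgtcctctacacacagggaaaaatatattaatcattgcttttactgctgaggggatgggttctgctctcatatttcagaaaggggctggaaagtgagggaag
Col1a2: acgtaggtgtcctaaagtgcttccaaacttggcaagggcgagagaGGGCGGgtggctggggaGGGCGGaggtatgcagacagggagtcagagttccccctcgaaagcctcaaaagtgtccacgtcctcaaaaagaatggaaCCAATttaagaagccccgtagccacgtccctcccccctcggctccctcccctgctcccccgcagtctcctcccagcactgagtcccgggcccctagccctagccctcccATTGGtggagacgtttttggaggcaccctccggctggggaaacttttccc

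A match is a description of the window only. GGGCGG was present in 21 of 32 collagen windows (65.6%) and in 35.9% of 27025 promoter windows of the same length, while the median GC content was 60.2% in collagen windows and 52.7% in all windows. CCAAT was present in 37.5% and 37.9%, and TATAAA in 15.6% and 14.2%. The 5 collagen genes with TATAAA were Col3a1, Col10a1, Col11a2, Col13a1 and Col17a1.

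The members together took 1.73% ± 0.544 (SD, n = 6) of recovered reads in CHR, 1.21% ± 0.559 in PAP and 2.78% ± 1.38 in SCC. These sums are set by the most abundant members and do not describe the typical member of a class. Fibrillar collagens took 1.15% ± 0.405 of reads in CHR, 0.456% ± 0.332 in PAP and 1.49% ± 0.965 in SCC. Basement membrane collagens took 0.202% ± 0.0598, 0.406% ± 0.092 and 0.405% ± 0.113, and of the papillomas only that of mouse 10, at 0.299%, did not exceed the highest skin library, that of mouse 3 at 0.31%. Most of this sum was Col17a1 and Col7a1, with mean counts of 40341 and 13972 of 73101 in PAP, while 7 of 10 members of the class were negative in PAP against CHR (median difference -0.37) and the median in SCC against CHR was -0.27. FACIT collagens took 0.16% ± 0.0589, 0.238% ± 0.136 and 0.517% ± 0.236. Nearly all of this was Col12a1, with a mean count of 84362 of 89391 in SCC, and 5 of 6 FACIT members were negative in PAP against CHR (median -0.29) and 4 of 6 in SCC against CHR (median -0.048). The other collagens, mostly type VI, took 0.218% ± 0.0693, 0.109% ± 0.0795 and 0.363% ± 0.204.

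Per kilobase of annotated exon, Col3a1 had the highest mean level of the family in CHR (11971 normalised reads per kb) and in SCC (10733), followed by Col1a2 and Col1a1 in CHR and by Col1a1 and Col12a1 in SCC. Col12a1 (5540), Col17a1 (5333) and Col1a2 (5085) do not differ beyond their spread in SCC. The length used, a union over transcripts, was 12426 bases for Col1a2 and 6563 for Col1a1, and their order depends on it. In PAP the order was led by Col17a1 (6711 normalised reads per kb), ahead of Col3a1 (2922) and Col1a1 (2905), and these last do not differ beyond their spread. At the other end, Col4a3, Col4a4, Col9a3, Col10a1, Col11a2, Col22a1, Col25a1 and Col26a1 stayed under 15 normalised reads per kb in every group mean.

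**Figure D1:**
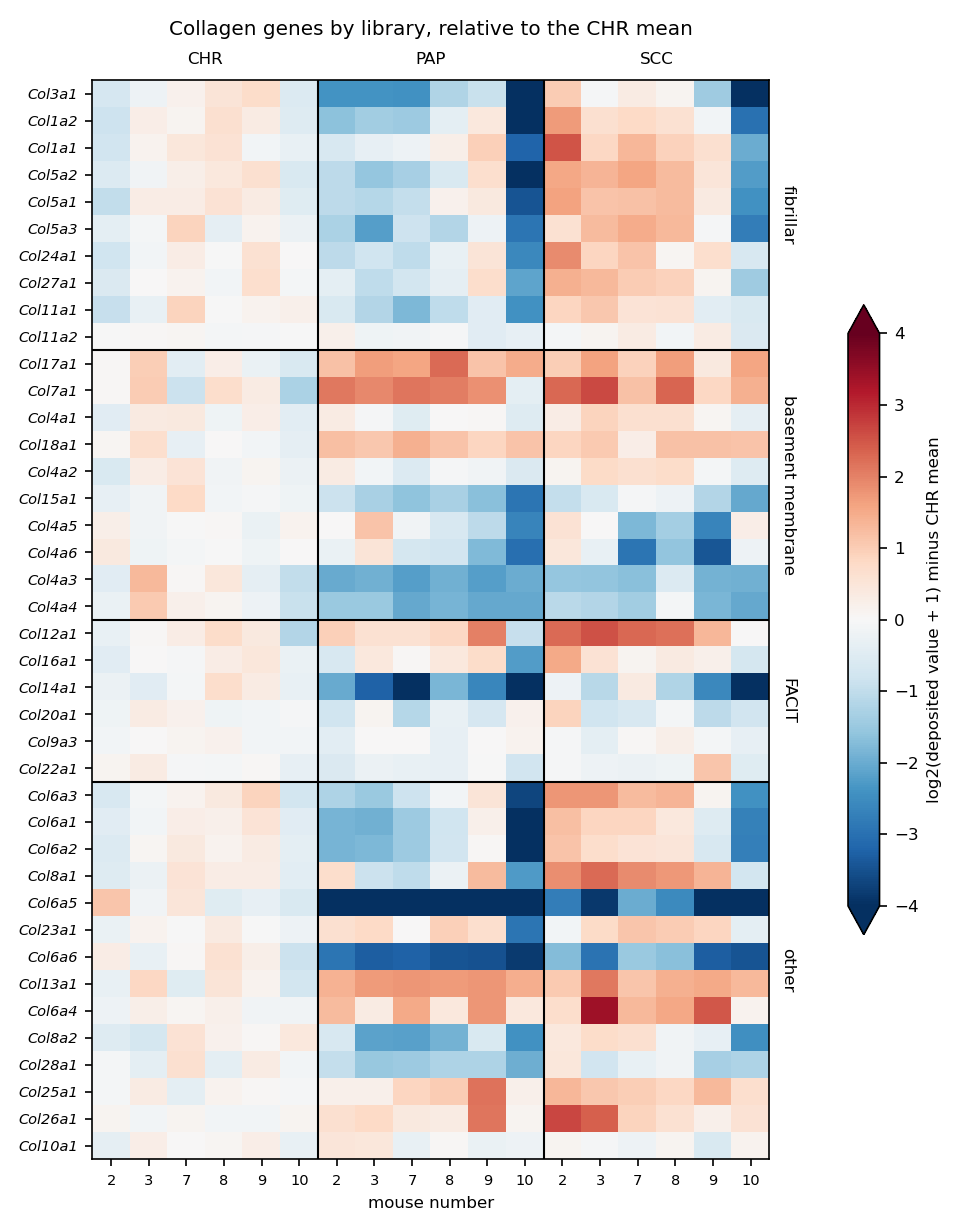
Heat map of 40 collagen genes (rows, by class and falling mean level) in 18 libraries (columns, by group and mouse number), with colour for log2(deposited value + 1) minus the mean of the 6 CHR libraries, limited to -4 to 4. Papillomas are blue in most fibrillar and type VI genes and red in Col17a1, Col7a1, Col18a1 and Col13a1, and the papilloma and carcinoma of mouse 10 are the bluest columns of their groups in the fibrillar class.

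The comparison of PAP with CHR asked what changes with the step from irradiated skin to a benign tumour. Of the 40 collagen genes 17 were called (42.5%), against 51.5% of all genes tested. The 5 that rose (12.5%, against 22.8% of all genes) were Col7a1, Col17a1, Col18a1, Col13a1 and Col25a1. The 12 that fell (30%, against 28.7% of all genes) were Col3a1, Col11a1, Col4a3, Col4a4, Col15a1, Col14a1, Col6a1, Col6a2, Col6a5, Col6a6, Col8a2 and Col28a1. The share that rose was below the background and the share that fell was near it. At an unadjusted p under 0.05 there were 19 of 40 members, against 57.2% of all genes. The median difference of the members was -0.60, with 30 of 40 negative, against 0.0014 over all genes. Groups did not overlap for 4 members that were higher and 8 that were lower, against 14.4% and 19.2% of all genes. Centring each library on its median gene moved the median of all genes to 0.141 and the share of their calls that were higher from 44.3% to 57.5%, with 6 members higher and 12 lower. Without mouse 10, 7 members rose, Col12a1 and Col23a1 being added, and Col5a3 was added to those that fell. Over all genes, 2868 rose in that fit, against 3312 with all mice, and 3903 fell, against 4162.

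In SCC against CHR, 13 of 40 members (32.5%) were called, against 36.5% of all genes. Here 9 rose (22.5%, against 15.1%), namely Col7a1, Col17a1, Col18a1, Col12a1, Col13a1, Col25a1, Col26a1, Col6a4 and Col8a1. The 4 that fell (10%, against 21.4%) were Col4a3, Col4a4, Col6a5 and Col6a6. No fibrillar collagen was called in limma (0 of 10, also at an unadjusted p under 0.05), nor in limma-voom. At an unadjusted p under 0.05 there were 16 of 40 members, against 46.3% of all genes. The median difference was 0.29 for the members and -0.020 for all genes. With centring on the median gene the share of calls over all genes that were higher went from 41.4% to 52.4%, with 9 members higher and 4 lower as before. Without mouse 10, 15 members rose in place of 9, the 6 added being Col1a1, Col5a1, Col5a2, Col27a1, Col6a3 and Col23a1. Over all genes, 1960 rose in that fit, against 2196 with all mice. Groups did not overlap for 3 members that were higher and 2 that were lower, against 8.49% and 11.2% of all genes. These 2 comparisons share the CHR libraries.

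In SCC against PAP, which compares malignant with benign tumours, 2 of 40 members were called (5%, against 5.58% of all genes). Both rose (against 4.99% of all genes), and both are minor fibrillar chains, Col11a1 and Col24a1. No member fell in limma (0 of 40, against 0.592% of all genes). In limma-voom 0 of all genes were called in this comparison, so its 0 for the members is no check. At an unadjusted p under 0.05 there were 20 of 40 members, against 22.6% of all genes, and each of the 20 was higher in SCC. Groups did not overlap for 0 members, against 0.255% (higher) and 0.158% (lower) of all genes. The median difference was 0.70 with 34 of 40 positive, against -0.019 over all genes. The count depended on the fit. With the mouse as a block 12 members rose, the 10 added being Col5a1, Col5a2, Col5a3, Col12a1, Col6a1, Col6a3, Col6a5, Col6a6, Col8a1 and Col28a1. Without mouse 10 there were 18, without mouse 2 there was 1, and without mouse 3, 7 or 8 there were 0. With limma-voom on recovered reads or with only these 12 libraries in the fit there were 0. Over all genes, 724 rose in the main fit, 1270 with the mouse as a block and 1695 without mouse 10.

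**Figure D2:**
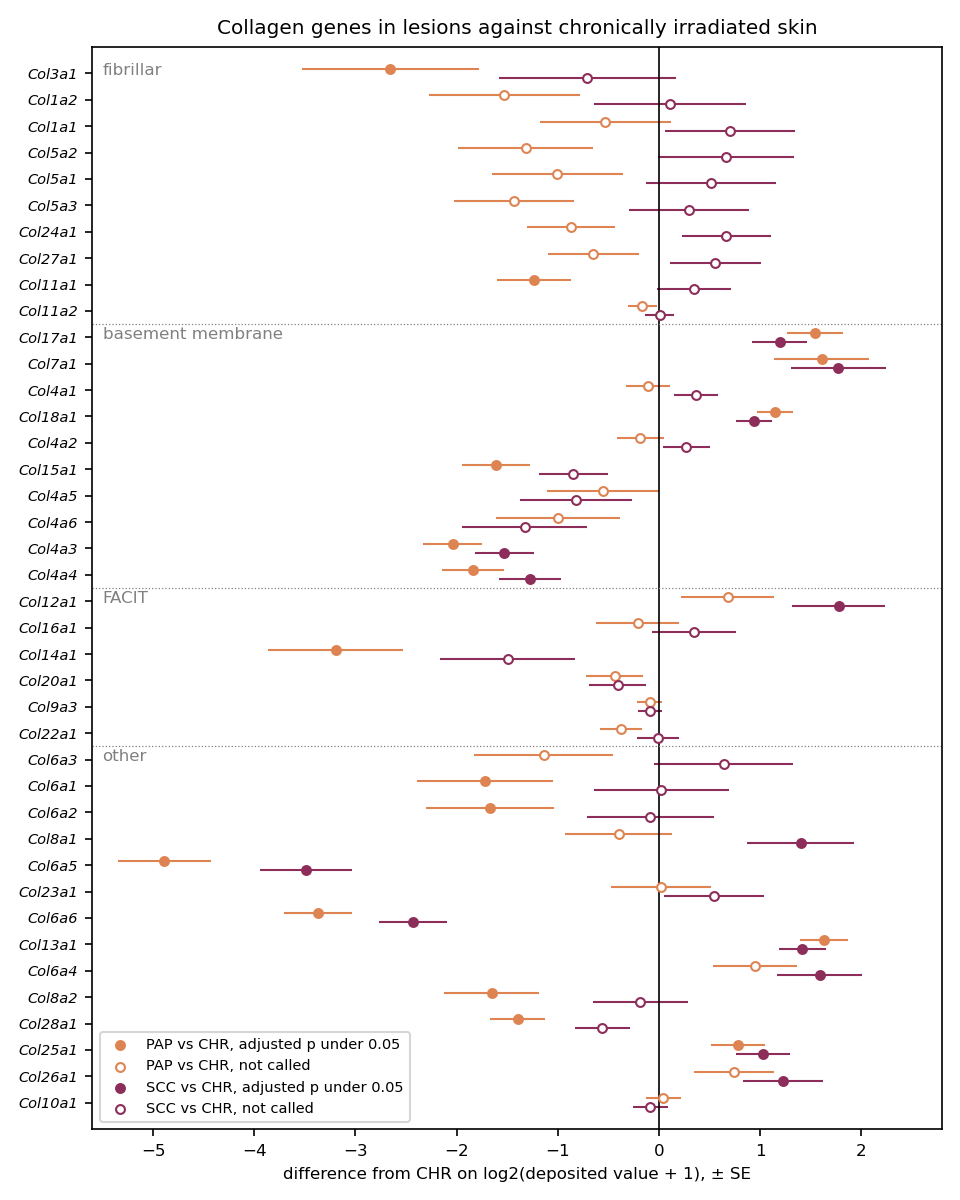
Difference of each collagen gene from CHR on log2(deposited value + 1) for PAP (orange) and SCC (purple), with bars of 1 SE. Filled points are called, open points are not. Of the fibrillar genes, filled points are seen for Col3a1 and Col11a1 in PAP and for none in SCC, while Col17a1, Col7a1, Col18a1 and Col13a1 are filled and above 0 in both.

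Fibrillar collagens were lower in papillomas by value in all 10 members, but 2 of 10 passed the test (20%, against 28.7% of all genes called lower). Col3a1, the chain of type III collagen that forms fibrils with type I in skin, had a normalised read count with lowest, median and highest values of 69748, 110231 and 181644 in CHR, 999, 21090 and 60011 in PAP, and 5924, 112907 and 220837 in SCC. All papillomas lay below all skin libraries, and carcinomas overlapped both groups. The difference was -2.65 ± 0.87 (SE) in PAP against CHR (adjusted p = 0.0169) and -0.71 ± 0.87 in SCC against CHR (adjusted p = 0.556).

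Col1a1 and Col1a2 encode the chains of type I collagen, the main protein of the dermis. Col1a1 had lowest, median and highest counts of 12170, 21126 and 30611 in CHR, 2173, 17321 and 39719 in PAP, and 5169, 37916 and 117944 in SCC. Its groups overlapped throughout, and neither PAP (-0.53 ± 0.64, adjusted p = 0.516) nor SCC (0.71 ± 0.64, adjusted p = 0.413) was called against CHR. Col1a2 counts were 23104, 47378 and 65237 in CHR, 1519, 15373 and 55393 in PAP, and 5133, 64150 and 135487 in SCC. The difference of Col1a2 in PAP was -1.53 ± 0.75 (adjusted p = 0.0962), and in the fit blocked by mouse it fell (adjusted p = 0.0271). The highest value of both genes was in the carcinoma of mouse 2, and the lowest values in the papilloma and carcinoma of mouse 10.

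Col5a1, Col5a2 and Col5a3 encode type V collagen, which starts the assembly of type I fibrils. Col5a2 was at 13942 ± 4829 normalised reads (SD, n = 6) in CHR, 7744 ± 7009 in PAP and 27583 ± 14296 in SCC. None of these 3 chains was called in any comparison. With the mouse as a block, Col5a2 (adjusted p = 0.025) and Col5a3 (0.0201) fell in PAP against CHR, and Col5a1 (0.0469), Col5a2 (0.0187) and Col5a3 (0.0343) rose in SCC against PAP. Col11a1, whose chain pairs with type V chains, had lowest, median and highest counts of 157, 382 and 725 in CHR, 20.9, 135 and 247 in PAP and 213, 572 and 853 in SCC. It fell by 1.24 on the log2 scale in PAP (SE 0.37, adjusted p = 0.00897, and 0.0628 without mouse 7) and was 1.58 ± 0.37 higher in SCC than in PAP (adjusted p = 0.0276), with 6 of 6 mice higher. Col24a1, a minor fibrillar chain, had counts of 157, 322 and 527 in CHR, 10.3, 142 and 496 in PAP and 185, 596 and 1401 in SCC, and was 1.54 ± 0.44 higher in SCC than in PAP (adjusted p = 0.048, 6 of 6 mice). In both genes the carcinomas overlapped the papillomas, and in the fit of these 12 libraries alone the adjusted p was 0.123 for Col11a1 and 0.144 for Col24a1. The call of Col11a1 was also lost without mouse 3, 7 or 8 (adjusted p up to 0.189), and that of Col24a1 without mouse 2, 3, 7 or 8 (up to 0.244). Col27a1 and Col11a2 were not called in any comparison.

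**Figure D3:**
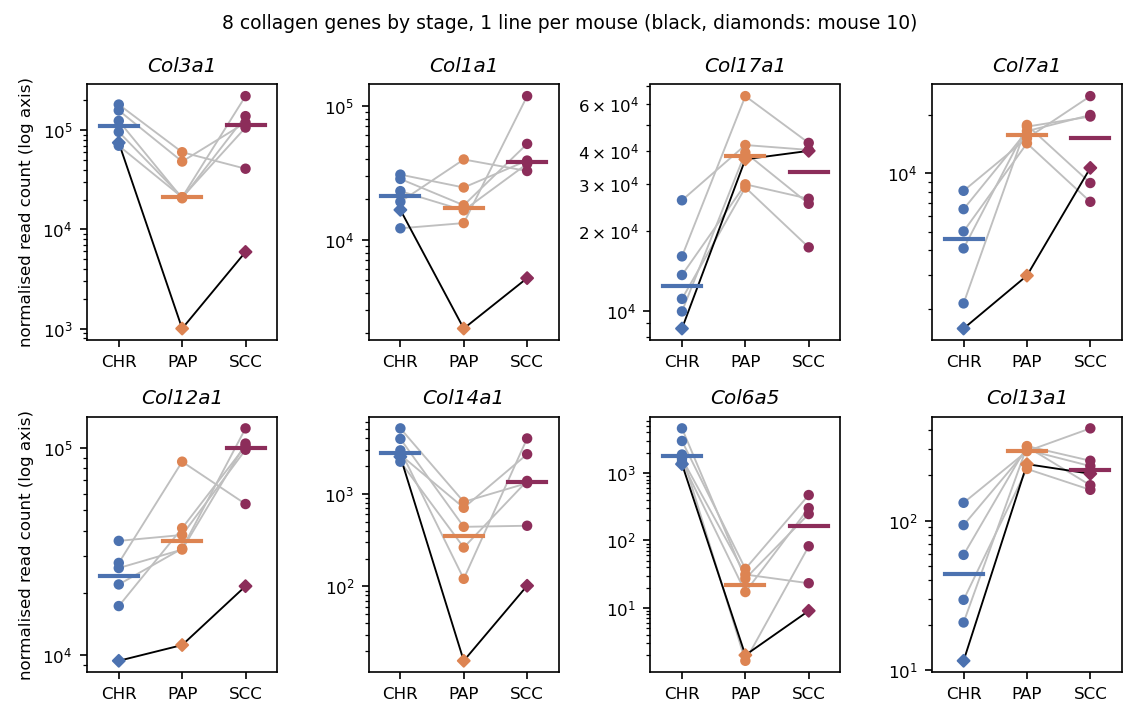
Normalised read counts (log axis, a separate scale in each panel) of 8 collagen genes in CHR, PAP and SCC, with a point for each library, a line for each mouse and a bar at the group median. Col3a1, Col14a1 and Col6a5 drop in PAP in all 6 mice, Col17a1, Col7a1 and Col13a1 rise in all 6, and mouse 10 (black line, diamonds) has the lowest Col3a1, Col1a1 and Col14a1 of both lesion groups.

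The lesions of mouse 10 stood apart in this class, and also in the FACIT and other collagens. Fibrillar collagens took 0.0336% of reads in its papilloma, against 0.33% to 0.993% in the other papillomas, and 0.12% in its carcinoma, against 0.821% to 2.95% in the other carcinomas. Its irradiated skin had 0.751%, above the 0.646% of mouse 2. Basement membrane collagens took 0.299% in its papilloma, the lowest of its group, and 0.388% in its carcinoma, within the range of the others. FACIT collagens took 0.0644% in its papilloma (0.182% to 0.479% in the others) and 0.133% in its carcinoma (0.33% to 0.76%). The class of other collagens took 0.0131% in its papilloma (0.0698% to 0.244% in the others) and 0.0388% in its carcinoma (0.195% to 0.55%). The fibroblast markers followed, with 0.00697% in its papilloma and 0.0221% in its carcinoma, both the lowest of their groups. Markers of some other tissues were low as well. Skeletal muscle markers took 0.000853% in its papilloma (0.00249% to 0.168% in the others) and 0.00221% in its carcinoma (0.413% to 1.05% in the others). Smooth muscle and pericyte markers took 0.0218% in its carcinoma (0.059% to 0.0877% in the others), while in its papilloma they were within the range of the others. Its basal keratinocyte markers were not low, with 2.89% and 2.77%, which was the highest value of the carcinomas. Schwann cell markers were not low either. They took 0.0118% in its papilloma, the highest of the papillomas, and 0.00974% in its carcinoma (0.00647% to 0.0105% over all carcinomas). Adipocyte markers took 0.0174% in its carcinoma, above the 0.00751% of mouse 7. Without mouse 10, 7 fibrillar genes, 7 of the other collagens and 2 FACIT collagens were added to the calls of SCC against PAP. Among the fibrillar genes added were Col3a1 (1.84 ± 0.42, adjusted p = 0.0082), Col1a2 (1.62 ± 0.40, adjusted p = 0.0129) and Col1a1 (1.24 ± 0.36, adjusted p = 0.031). The 2 calls made with all mice were also made without mouse 10. Over all genes, 1695 rose in SCC against PAP without mouse 10, against 724 with all mice.

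Collagens of the basement membrane zone did not move together. In PAP against CHR 3 of 10 rose (30%, against 22.8% of all genes) and 3 fell (30%, against 28.7%), shares close to those of all genes. Col17a1, Col7a1 and Col18a1 rose in both lesions, Col15a1, Col4a3 and Col4a4 fell in papillomas, and the main type IV chains Col4a1 and Col4a2 were not called in any comparison. Col17a1, the transmembrane collagen of the hemidesmosome, had lowest, median and highest counts of 8600, 12390 and 26090 in CHR, 29146, 38305 and 64253 in PAP and 17363, 33226 and 42860 in SCC. Papillomas lay above all skin libraries, while the carcinomas of mice 7 and 9 lay within the range of skin. It was 1.55 ± 0.27 higher in PAP (2.83 times in mean counts, adjusted p = 0.000149) and 1.20 ± 0.27 higher in SCC (2.25 times, adjusted p = 0.00254).

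Col7a1, the chain of anchoring fibrils, had counts of 1583, 4553 and 8107 in CHR, 2965, 15782 and 17705 in PAP and 7117, 15103 and 24924 in SCC. It was higher in all 6 mice in both lesions, by 1.61 ± 0.47 in PAP (adjusted p = 0.00813) and 1.78 ± 0.47 in SCC (adjusted p = 0.00686). The papilloma of mouse 10, at 2965, and the carcinoma of mouse 9, at 7117, lay among the skin libraries. Col18a1, a basement membrane collagen whose end fragment is endostatin, had counts of 2488, 3108 and 5074 in CHR, 5892, 7148 and 8743 in PAP and 3820, 6908 and 7265 in SCC. It rose by 1.15 ± 0.18 in PAP (adjusted p = 3.73e-05) and by 0.94 ± 0.18 in SCC (adjusted p = 0.000534). None of the 3 differed between SCC and PAP by the test (differences of -0.35 ± 0.27, 0.17 ± 0.47 and -0.21 ± 0.18). The basal keratinocyte markers named above, which do not include collagens, moved in the same direction.

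Col15a1 encodes the relative of type XVIII found around vessels and muscle fibres. Its counts were 1464, 1716 and 3282 in CHR, 183, 636 and 992 in PAP and 390, 1056 and 1793 in SCC, so that all papillomas lay below all skin libraries. It fell by 1.61 on the log2 scale in PAP (SE 0.34, adjusted p = 0.000707). In SCC it was lower in 6 of 6 mice (-0.85 ± 0.34, adjusted p = 0.058, and 0.0182 with the mouse as a block). Of 8 endothelial markers 3 fell and 1 rose in PAP, and their summed share of reads was 0.0262% to 0.0383% in CHR and 0.017% to 0.0332% in PAP. Of 8 smooth muscle and pericyte markers 6 fell and none rose (0.074% to 0.0863%, against 0.0185% to 0.0403%). Their part in the fall of Col15a1, like that of skeletal muscle, was not tested.

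Col4a1 and Col4a2 encode the type IV chains present in nearly all basement membranes. Col4a1 had counts of 5024, 7199 and 9072 in CHR, 4821, 6770 and 8726 in PAP and 5273, 9635 and 12840 in SCC. Col4a2 had 2813, 4305 and 6349 in CHR, 2862, 3933 and 5453 in PAP and 2992, 5728 and 7324 in SCC. The 3 groups overlapped for both genes. The difference in PAP was -0.11 ± 0.22 (adjusted p = 0.712) for Col4a1 and -0.18 ± 0.24 (adjusted p = 0.541) for Col4a2.

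Col4a3 and Col4a4, known as partners of Col4a5 in the basement membrane of the kidney filter, were close to absent from papillomas. Col4a3 had 68.1, 374, 121, 180, 76.4 and 30.4 normalised reads in the skin of mice 2, 3, 7, 8, 9 and 10, and at most 1.64 in any papilloma, with 0 reads in 2 of 6. Carcinomas held 8.44, 7.84, 5.60, 59.0, 1.99 and 1.64 in the same order. Col4a4 had 27.9 to 270 normalised reads in CHR and at most 6.14 in PAP, with 0 reads in 3 of 6 papillomas and in 1 carcinoma. All papillomas were below all skin libraries in both genes, and the carcinoma of mouse 8 was within the range of skin. Both fell in PAP (Col4a3 -2.04 ± 0.30, adjusted p = 2.07e-05, and Col4a4 -1.83 ± 0.31, adjusted p = 8.45e-05) and in SCC (-1.53 ± 0.30, adjusted p = 0.000697, and -1.27 ± 0.31, adjusted p = 0.00359). At these counts the log2 differences understate the change, and no fold is given against papillomas.

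Col4a5 and Col4a6 form the network found in the epidermal basement membrane. Neither was called in any comparison, but their spread widened in lesions. Col4a5 counts ran from 328 to 495 in CHR, from 18.6 to 993 in PAP and from 18.6 to 634 in SCC, and those of Col4a6 from 305 to 482, from 3.19 to 527 and from 0 to 507. In 6 of 6 places the order of the mice by Col4a5 was the order by Col4a6 in PAP (3, 2, 7, 8, 9 and 10 from high to low) and again in SCC (2, 10, 3, 8, 7 and 9). In CHR it was the same in 4 of 6 places. The start sites of these genes on chromosome X lie 1309 bases apart. Mouse 10, lowest for both genes in its papilloma, was second highest in its carcinoma.

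**Figure D4:**
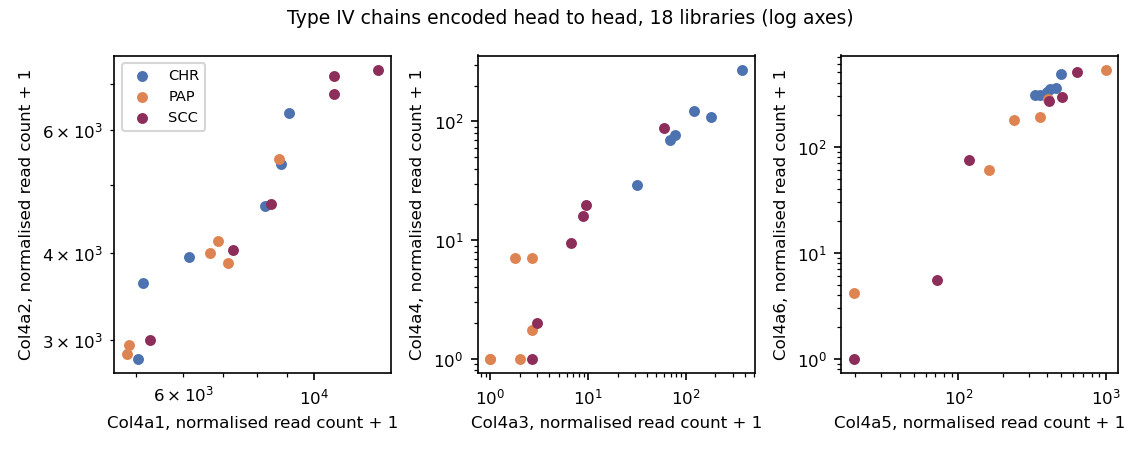
Normalised read count plus 1 of Col4a2 against Col4a1, Col4a4 against Col4a3 and Col4a6 against Col4a5 in 18 libraries, on log axes, coloured by group. Points lie along a rising line in each panel, papillomas (orange) sit in the low corner of the panel of Col4a3 and Col4a4, and the groups intermix in the panel of Col4a1 and Col4a2.

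The order of mice was the same in 6 of 6 places for Col4a1 and Col4a2 in CHR, in 3 of 6 in PAP and in 4 of 6 in SCC. For Col4a3 and Col4a4 it was the same in 4 of 6 in CHR and 6 of 6 in SCC, while in PAP several libraries tied at 0 reads and no order is given. Points of a pair share a library, and since the counting is not stated to use strand, reads from the overlap of the Col4a1 and Col4a2 start sites cannot be assigned with certainty.

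The FACIT collagens Col12a1 and Col14a1, both on the surface of type I fibrils, had differences of opposite sign in lesions against CHR, not all of them called. Col12a1 had lowest, median and highest counts of 9387, 24149 and 35650 in CHR, 11186, 35409 and 86076 in PAP and 21541, 100465 and 124686 in SCC. It was higher in all 6 mice in SCC, by 1.78 ± 0.46 (3.66 times in mean counts, adjusted p = 0.00623), and higher in 6 of 6 papillomas by a difference that was not called (0.68 ± 0.46, adjusted p = 0.229). The lowest carcinoma, of mouse 10, was within the range of skin, and the other 5 lay above it. Col14a1 had counts of 2228, 2801 and 5108 in CHR, 15.7, 352 and 820 in PAP and 102, 1344 and 3974 in SCC. It fell by 3.20 on the log2 scale in PAP (SE 0.67, adjusted p = 0.000713), with no overlap between the groups. In SCC the difference was -1.49 ± 0.67 (adjusted p = 0.0887, and 0.0428 with the mouse as a block). Against PAP, Col12a1 was 1.10 ± 0.46 higher in SCC (adjusted p = 0.165, and 0.0278 with the block). Col14a1 was also higher in SCC than in PAP, in 6 of 6 mice (1.70 ± 0.67, adjusted p = 0.137, and 0.0641 with the block).

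Col16a1, which joins fibrils and basement membranes, was not called in any comparison. Its counts were 1595, 2176 and 3093 in CHR, 417, 2632 and 3734 in PAP and 1340, 2737 and 6463 in SCC. Col20a1, Col22a1 and Col9a3 were not called either and had group means of at most 187, 17.9 and 43.3 normalised reads. Of 7 markers of activated fibroblasts, which held no collagen, 3 rose and 1 fell in SCC against CHR, and their summed share was 0.1% to 0.299% in CHR, 0.0657% to 0.308% in PAP and 0.0861% to 0.803% in SCC. The carcinoma of mouse 10 had the lowest share of its group.

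Type VI collagen forms beaded filaments from Col6a1, Col6a2 and a further chain, which can be Col6a3 or Col6a4, Col6a5 or Col6a6. These further chains went in different directions. Col6a5 had counts of 1357, 1760 and 4598 in CHR, 1.64, 22.2 and 37.9 in PAP and 9.04, 164 and 472 in SCC, without overlap of either lesion with skin. Its difference was -4.89 ± 0.46 in PAP (adjusted p = 2.91e-07) and -3.49 ± 0.46 in SCC (adjusted p = 2.4e-05). These were the largest in size of the family on this scale, which compresses low counts. By the ratio of mean counts, Col4a3 in PAP and Col26a1 in SCC differed more, both with counts close to 0 in a group. Mean counts of Col6a5 were 12.3 times lower in SCC than in CHR. Col6a6 had 244 to 792 normalised reads in CHR, 0 to 17.2 in PAP and 2.76 to 134 in SCC, and fell by 3.37 (SE 0.34, adjusted p = 4.76e-07) and 2.43 (SE 0.34, adjusted p = 3.6e-05).

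Col6a3, the most abundant chain of this class, had counts of 9798, 17007 and 30817 in CHR, 1227, 8119 and 23509 in PAP and 3033, 41091 and 56542 in SCC. It was lower in 6 of 6 papillomas but not called (-1.14 ± 0.69, adjusted p = 0.177), nor was it called in SCC (0.64 ± 0.69, adjusted p = 0.492). Col6a1 and Col6a2 fell in PAP, by 1.72 (SE 0.67, adjusted p = 0.0393) and 1.67 (SE 0.63, adjusted p = 0.0338), and lower counts were seen in 6 of 6 mice. Both calls were lost when mouse 2, 3, 7 or 8 was left out, where the adjusted p reached 0.0906 and 0.0861. Counts of Col6a1 were 6863, 9915 and 14032 in CHR, 351, 3014 and 10970 in PAP and 1387, 15190 and 22111 in SCC, and those of Col6a2 were 4341, 6970 and 8509, then 282, 2042 and 6616, then 898, 9257 and 14337. Col6a4 was the chain that rose, from 30.4, 40.1 and 58.1 in CHR to 67.2, 129 and 288 in PAP and 51.8, 212 and 1032 in SCC. Its difference was 1.59 ± 0.42 in SCC (adjusted p = 0.00673). All papillomas were above all skin libraries, although the difference of 0.95 ± 0.42 in PAP was not called (adjusted p = 0.0642).

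Of the transmembrane collagens, which sit in the cell surface and can be shed, Col13a1 and Col25a1 rose and Col23a1 was not called. Col13a1 had counts of 11.6, 44.3 and 131 in CHR, 221, 293 and 314 in PAP and 160, 218 and 412 in SCC, so that every lesion exceeded every skin library. It was 1.63 ± 0.23 higher in PAP (4.83 times in mean counts, adjusted p = 1.87e-05) and 1.42 ± 0.23 higher in SCC (4.14 times, adjusted p = 0.000186). Col25a1 had counts of 1.03, 7.56 and 17.9 in CHR, 12.9, 29.6 and 205 in PAP and 33.7, 58.1 and 83.8 in SCC. Its carcinomas did not overlap skin (1.03 ± 0.27, adjusted p = 0.00615), whereas 3 of 6 papillomas lay within the range of skin (0.78 ± 0.27, adjusted p = 0.0208). The call in PAP was lost without mouse 7 or 8, where the adjusted p reached 0.0866. Col23a1 was at 479 ± 90.1 normalised reads (SD, n = 6) in CHR, 651 ± 354 in PAP and 782 ± 318 in SCC, with a lone low value of 15.0 in papilloma 10.

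Col26a1 was at 0 reads in 3 of 6 skin libraries and at 1.03 normalised reads in the others. Papillomas had a lowest, median and highest count of 1.03, 8.34 and 121, the lowest equal to the highest skin value, and carcinomas of 1.99, 15.6 and 203, all above skin. Its difference in SCC was 1.23 ± 0.39 (adjusted p = 0.0208), a call lost without mouse 2 or 3, where the adjusted p reached 0.0987. These 2 mice held its highest carcinoma values, 203 and 155. Among the short-chain collagens, which form open networks, Col8a1 rose in SCC from 838, 1274 and 1836 in CHR to 713, 4465 and 6244 (1.40 ± 0.53, adjusted p = 0.0455). In papillomas it had counts of 198, 834 and 3084. This call was lost on a scale of log2(normalised count + 1), with a pseudocount of 10 and when mouse 2, 3, 7, 8 or 9 was left out, with an adjusted p of up to 0.16. Col8a2 fell in PAP by 1.65 (SE 0.47, adjusted p = 0.00687), from 105 to 348 normalised reads in CHR to 3.19 to 114 in PAP. Col10a1, a collagen of growth plate cartilage, had group means of at most 10.7 normalised reads and was not called. Of 2 cartilage markers in the table, 1 was lower in each lesion group than in CHR.

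Col28a1, a collagen known from peripheral nerve, fell in PAP by 1.39 (SE 0.27, adjusted p = 0.000358), from 78.2, 111 and 229 normalised reads to 1.99, 17.6 and 36.2, without overlap. In SCC its counts were 17.9, 67.5 and 190 (-0.56 ± 0.27, adjusted p = 0.114). Of 5 Schwann cell markers 4 were lower in both lesions than in CHR, and their summed share was 0.0132% to 0.0219% in CHR, 0.00729% to 0.0118% in PAP and 0.00647% to 0.0105% in SCC. Of 6 adipocyte markers 5 were lower in both lesions, and the same 5 had at least 1 library with 0 reads in each lesion group.

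Ratios of chains within a library do not depend on the scaling between libraries, and 8 ratios of chains that share a trimer or a site were compared within mice. With 6 mice the exact two-sided sign-flip permutation test cannot give a p below 0.0312, and 8 of the 24 tests reached it. After Benjamini-Hochberg adjustment over 24 tests these had 0.0938, so that 0 ratios passed the threshold. An adjusted p under 0.05 would have needed far more than 8 tests at the smallest p. The 0 therefore says little of any single ratio. The ratio of Col1a1 to Col1a2 reads was 0.368 to 0.63 in CHR, 0.717 to 1.43 in PAP and 0.571 to 1.01 in SCC. Every papilloma was above every skin library, and the log2 ratio was higher in 6 of 6 mice by 1.01 ± 0.21 (SD, n = 6, exact p = 0.0312, adjusted 0.0938) in PAP and by 0.60 ± 0.37 in SCC (the same p).

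The ratio of Col3a1 to Col1a1 went the other way, from 4.17 to 9.46 in CHR to 0.46 to 1.97 in PAP and 1.15 to 3.06 in SCC. No lesion overlapped skin, and the log2 ratio was lower in 6 of 6 mice by -2.14 ± 0.70 (SD) in PAP and -1.42 ± 0.93 in SCC (exact p = 0.0312 for each, adjusted 0.0938). The ratio of Col12a1 to Col14a1 was 3.72 to 9.85 in CHR, 46.4 to 712 in PAP and 26.5 to 212 in SCC. It was higher in 6 of 6 mice, by 4.47 ± 1.75 in PAP and 3.44 ± 1.45 in SCC, with the same exact p and adjusted p. Lower ratios in 6 of 6 mice were also seen for Col5a1 to Col1a1 in PAP (-0.51 ± 0.41) and for Col6a1 to Col6a3 in SCC (-0.62 ± 0.20), again at the smallest p.

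The ratio of Col4a1 to Col4a2 stayed between 1.42 and 1.85 in all 18 libraries, and its mean log2 difference between groups was at most 0.094 (exact p = 0.156, adjusted 0.25). The ratio of Col4a5 to Col4a1 ranged from 0.0397 to 0.0986 in CHR and from 0.00256 to 0.149 in lesions, and its differences between groups did not reach the smallest p. Col17a1 to Col7a1 was 2.22 to 5.43 in CHR, 1.73 to 12.5 in PAP and 1.35 to 3.76 in SCC, with 4 of 6 mice lower in PAP (exact p = 0.812).

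**Figure D5:**
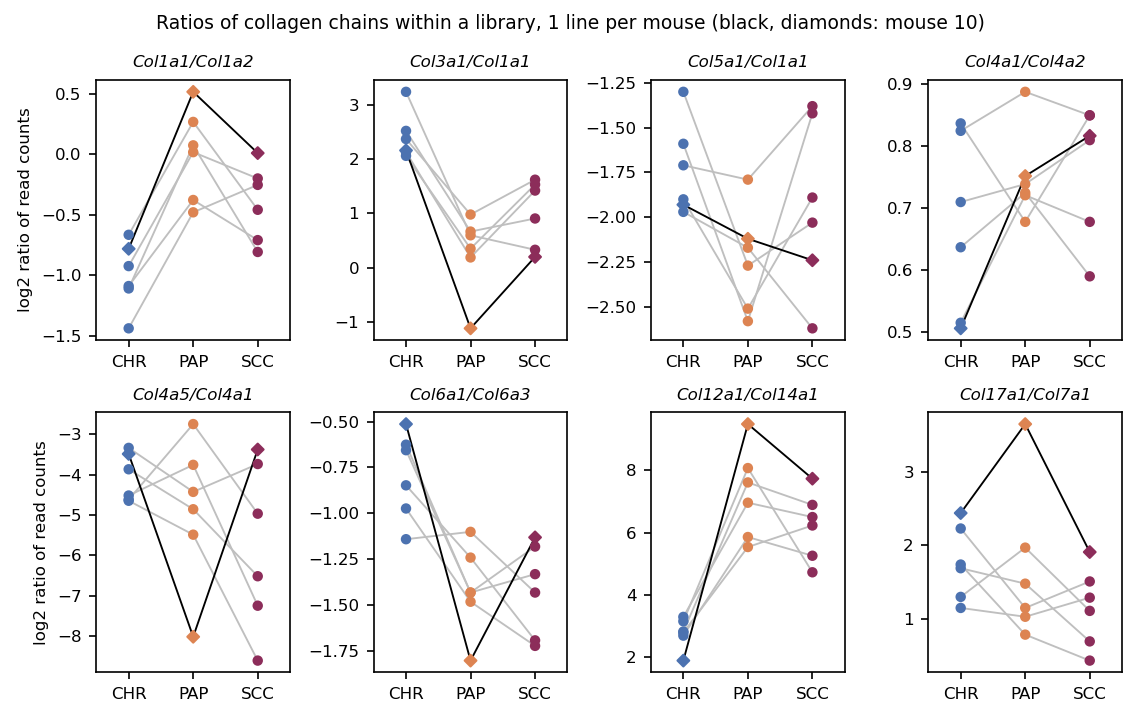
Log2 ratios of normalised read counts of 8 chain pairs in CHR, PAP and SCC, with a point for each library and a line for each mouse (black, diamonds: mouse 10), each panel on its own scale. All 6 lines of Col1a1/Col1a2 and Col12a1/Col14a1 rise from CHR to PAP, all 6 of Col3a1/Col1a1 fall, and Col4a1/Col4a2 stays between 0.5 and 0.9.

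Genes that modify, process or bind collagen were counted from lists. Of all genes, 22.8% rose and 28.7% fell in PAP against CHR. In SCC against CHR 15.1% rose and 21.4% fell, and in SCC against PAP 4.99% and 0.592%. With limma-voom, with only the 2 groups, or without mouse 3, 7 or 8, 0 of all genes were called in SCC against PAP. Every call of a listed gene in that comparison below is therefore lost in those fits. Of 20 genes for folding and modification in the endoplasmic reticulum, 5 rose and 5 fell in PAP, 4 rose and 2 fell in SCC against CHR, and 1 fell in SCC against PAP. Counts in PAP were near the shares of all genes. In PAP the largest rises among the genes called were those of the prolyl 3-hydroxylase gene listed as Leprel1, from 748 ± 193 to 1788 ± 466 normalised reads (SD, n = 6, 1.16 ± 0.24 on the log2 scale, adjusted p = 0.000692), and of its relative Leprel4 (1.13 ± 0.28, adjusted p = 0.00288). The largest falls among the genes called were those of Fkbp14, a prolyl isomerase (-0.98 ± 0.33, adjusted p = 0.0185), and Tmem38b, an ion channel of the endoplasmic reticulum (-0.77 ± 0.11, adjusted p = 2.39e-05). Leprel1 was lower again in SCC, at 873 ± 431 (-1.02 ± 0.24 against PAP, adjusted p = 0.0295).

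Of 12 genes for propeptide removal and crosslinking, 9 fell and 1 rose in PAP. In SCC against CHR 1 fell and 1 rose, and in SCC against PAP 4 rose. Lox, whose enzyme starts collagen crosslinking, was at 2138 ± 388 normalised reads in CHR, 371 ± 370 in PAP and 3071 ± 2134 in SCC. It fell in PAP (-2.78 ± 0.70, adjusted p = 0.00294) and rose from PAP to SCC (2.73 ± 0.70, adjusted p = 0.0361), each in 6 of 6 mice. The call from PAP to SCC was lost in the fits that called 0 of all genes. Pcolce, an enhancer of procollagen cleavage, fell in PAP (-2.37 ± 0.50, adjusted p = 0.000744), and Tll1, a protease of the same step, was the gene that rose (0.996 ± 0.403, adjusted p = 0.0464, higher in 5 of 6 mice). The other 3 genes that rose in SCC against PAP were the Lox relatives Loxl1, Loxl3 and Loxl4. Of the 10 fibroblast markers 9 fell in PAP against CHR and 3 rose in SCC against PAP.

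Of 9 collagen receptor genes, 2 rose and 2 fell in PAP, 3 rose in SCC against CHR and 2, Itga1 and Lair1, rose in SCC against PAP. Their counts in PAP were near the shares of all genes given above. Itga2, the receptor subunit of keratinocytes for fibrillar collagen, went from 495 ± 192 normalised reads in CHR to 1882 ± 728 in PAP (1.76 ± 0.29, adjusted p = 8.44e-05) and 1429 ± 737 in SCC (1.33 ± 0.29, adjusted p = 0.00192). Its partner Itgb1 also rose in both lesions (0.62 ± 0.16, adjusted p = 0.0039, and 0.88 ± 0.16, adjusted p = 0.00042). Ddr2, a receptor kinase of fibroblasts, fell in PAP from 4028 ± 896 to 1597 ± 1328 (-1.83 ± 0.51, adjusted p = 0.00651), and Lair1, an inhibitory receptor of leukocytes, fell by 1.77 (SE 0.36, adjusted p = 0.000578).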

How the data were processed

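RNA of 18 libraries (CHR, PAP and SCC of 6 mice) was sequenced as paired reads of 76 nt. The authors aligned reads to mm10, counted them with HTSeq, divided counts by a size factor and applied a variance-stabilising transformation. The deposited values are a score, namely transformed values rounded to whole numbers, with 0 reads at 39. The aligner of the mouse reads, versions, annotation and strandedness are not given in the sources used here. Rows without a gene symbol (21 of 14542, at most 0.236% of a library) were left out, and 0 columns were unmapped.

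Since the values are not counts, no count test was the main test. The test was limma 3.58.1 (R 4.3.3) on log2(value + 1), with group only, all 18 libraries in 1 fit, two-sided, and Benjamini-Hochberg adjustment over 14521 genes at 0.05. The transformation was inverted (zero level 39.13, size factors 0.835 to 1.18), and for 99.6% of values the nearest whole read count, transformed and rounded, gave back the deposited value exactly. A size factor per library was enough for this, and no scaling of batch medians per gene, which the methods name, was needed. Both steps were tested on simulated data. No libraries were copies of each other (at most 2.24% of values equal). Annotation was GENCODE M21, and exon lengths were unions over transcripts.

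Same-numbered libraries come from the same mouse, so the numbers pair them. The correlation of their deviations was -0.245 to 0.507. Members whose call changed with the mouse as a block are named, and for some of them the adjusted p is given. Chain ratios used an exact sign-flip permutation test over mice.

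The members and gene lists were chosen with earlier results of these data known. Named with values were the 3 members of each class with the highest mean count, all members called higher in a lesion than in CHR, all called in SCC against PAP, the 8 ratios, and of each list of collagen-related genes the 2 called genes with the largest change in each direction in PAP. Other members are named in addition, chosen after their values were seen. Marker lists covered fibroblasts, basal keratinocytes, skeletal muscle, endothelium, smooth muscle and pericytes, activated fibroblasts, adipocytes, Schwann cells and cartilage. Alternatives were another scale or pseudocount of 10, limma-voom, other scalings, a filter of at least 10 reads in 6 libraries, the block, a fit of 2 groups and leaving out each mouse.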

Additional observations from a re-analysis of the deposited data

Results flagged for a closer look

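Of 120 sets of 6 libraries (40 genes in 3 groups), 14 had a highest or lowest library that stood apart from the other 5 by Dixon's criterion on log2(value + 1), where chance gives about 1 in 20. In 8 of them it was a lesion of mouse 10, and low. In its papilloma these were Col3a1 (999 normalised reads, the others 20583 to 60011), Col7a1 (2965, the others 14238 to 17705) and Col23a1 (15.0, the others 474 to 975). In its carcinoma they were Col5a1 (1096, the others 7995 to 19191), Col5a2 (2750, the others 18639 to 39542), Col5a3 (194, the others 1684 to 5029), Col8a1 (713, the others 3264 to 6244) and Col8a2 (2.76, the others 154 to 402).

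The other 6 came from mice 2, 7, 8 and 9. Col15a1 was high in the irradiated skin of mouse 7 (3282 normalised reads, the others 1464 to 1818) and Col4a6 in that of mouse 2 (482, the others 305 to 356). Col18a1 was low in the carcinoma of mouse 7 (3820, the others 5858 to 7265). Col22a1 was high in the carcinoma of mouse 9 (77.3, the others 1.64 to 10.3), Col26a1 in the papilloma of mouse 9 (121, the others 1.03 to 17.2) and Col4a3 in the carcinoma of mouse 8 (59.0, the others 1.64 to 8.44).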

How the results depend on the processing

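In PAP against CHR, where 17 collagen genes were called, 8 alternatives gave 17 to 21 and leaving out each mouse gave 13 to 20 (higher 4 to 7, lower 9 to 13). In SCC against CHR, with 13 called, they gave 12 to 15, and leaving out each mouse 11 to 19 (higher 7 to 15, lower 4 to 6). In SCC against PAP the 2 calls, both higher, became 1 on log2(normalised count + 1), with a pseudocount of 10 or centred on the median gene, 0 with limma-voom (18 at an unadjusted p under 0.05) or with only the 2 groups (16), 12 with the mouse as a replicate block, 3 with scaling to total reads, and 0 to 18 when a mouse was left out. Each fit of this comparison that gave 0 members called 0 of all genes. Single calls held under all 14 alternatives for 13 of 17 genes in PAP against CHR, 11 of 13 in SCC against CHR and 0 of 2 in SCC against PAP, and no called difference turned its direction. The mouse as a replicate block changed no other call of a collagen gene than those named with it.

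Without the replicate block, in an exact permutation of libraries, 5 chain ratios in PAP against CHR and 4 in SCC against CHR passed the adjusted threshold in place of 0, a test that allows a smaller p, and SCC against PAP stayed at 0. With 5 mice the smallest p is 0.0625, so leaving out mice gave 0 throughout and says nothing of stability. Depth limits Col4a3, Col4a4, Col26a1, Col22a1, Col10a1, Col6a6 and Col4a6, with 0 reads in at least 1 library each.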
